A study of Mus musculus with 6 samples.

Results

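The genes of the vascular endothelial growth factor (VEGF) family were followed in lung cells of mice that had received the complement protein C1q. The 9 genes were taken by symbol from the deposited count table of 26890 genes. They are the ligand genes Vegfa, Vegfb, Vegfc and Vegfd, the receptor tyrosine kinase genes Kdr, Flt1 and Flt4, and the neuropilin genes Nrp1 and Nrp2. All 9 had a row and all 9 were among the 13473 genes that passed the filter on low counts. Wild-type C57BL/6 mice had been given saline (n = 3) or C1q at 20 µg per mouse (n = 3) into the trachea, and lungs were taken at day 3. Per the labels' protocols, the lungs were minced, digested with Liberase and DNase and separated on a Percoll step gradient, and cells of the middle layer were lysed. Poly(A) RNA was read from the 5′ ends of transcripts. The protocol text mentions only C1q, for saline and C1q samples alike, and saline was taken from the treatment label. No age or sex of the mice and no source of the C1q is given in the labels. Nothing in them ties a sample to an animal of its own, and p-values therefore measure only the spread between these samples, which may be technical.

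Library totals ran from 2227619 to 3650793 counts. At that depth 1 count was worth 0.277 to 0.451 CPM, the count scaled to a fixed library total. Every CPM below was scaled to library sizes adjusted by the trimmed mean of M-values (TMM). Markers of the labelled tissue were present in all 6 libraries, with Sftpc of alveolar type 2 cells at 42710 counts or more, Ager of alveolar type 1 cells at 2619 or more and the endothelial gene Pecam1 at 941 or more. Across all genes, 4 passed the edgeR quasi-likelihood test at an adjusted p under 0.05, all higher after C1q. In the lower direction 0 passed, with 531 at an unadjusted p under 0.05, where DESeq2 called 1 and limma-voom 0.

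VEGF signalling builds and maintains blood and lymphatic vessels. Kdr encodes the main signalling receptor for VEGF-A on endothelial cells. Flt1 encodes a receptor that binds VEGF-A and VEGF-B tightly, signals weakly and is also made as a soluble decoy. Flt4 encodes the receptor for VEGF-C and VEGF-D, best known on lymphatic endothelium. Neuropilins are co-receptors that also bind class 3 semaphorins. In the adult lung, alveolar type 1 cells are a major source of VEGF-A, and Kdr is high in aerocytes, the large capillary cells of the alveolus that carry Car4.

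After C1q, 0 of the 9 VEGF genes passed the edgeR test, against 0.0297% of all genes tested. The same count was 0 with DESeq2 and with limma-voom. At an unadjusted p under 0.05 there was 1 of 9, against 8.16% of all genes. That gene was Vegfd, which was higher, as were 4.22% of all genes at that p, while 0 of the 9 were lower, against 3.94%. Of the 9 genes, 5 had a negative log2 fold change, and the median over the 9 was -0.07, beside -0.01 over all genes tested. That median was -0.12 without saline replicate 2 and -0.0005 without saline replicate 3. The groups did not overlap for 2 of the 9, against 14.1% of all genes. All C1q libraries lay above all saline libraries for Vegfd, as they did for 8.12% of all genes, and below them for Flt1, as for 5.96%. Because the libraries come from mixed cells, fewer cells of a type and less RNA per cell cannot be told apart.

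**Figure D1:**
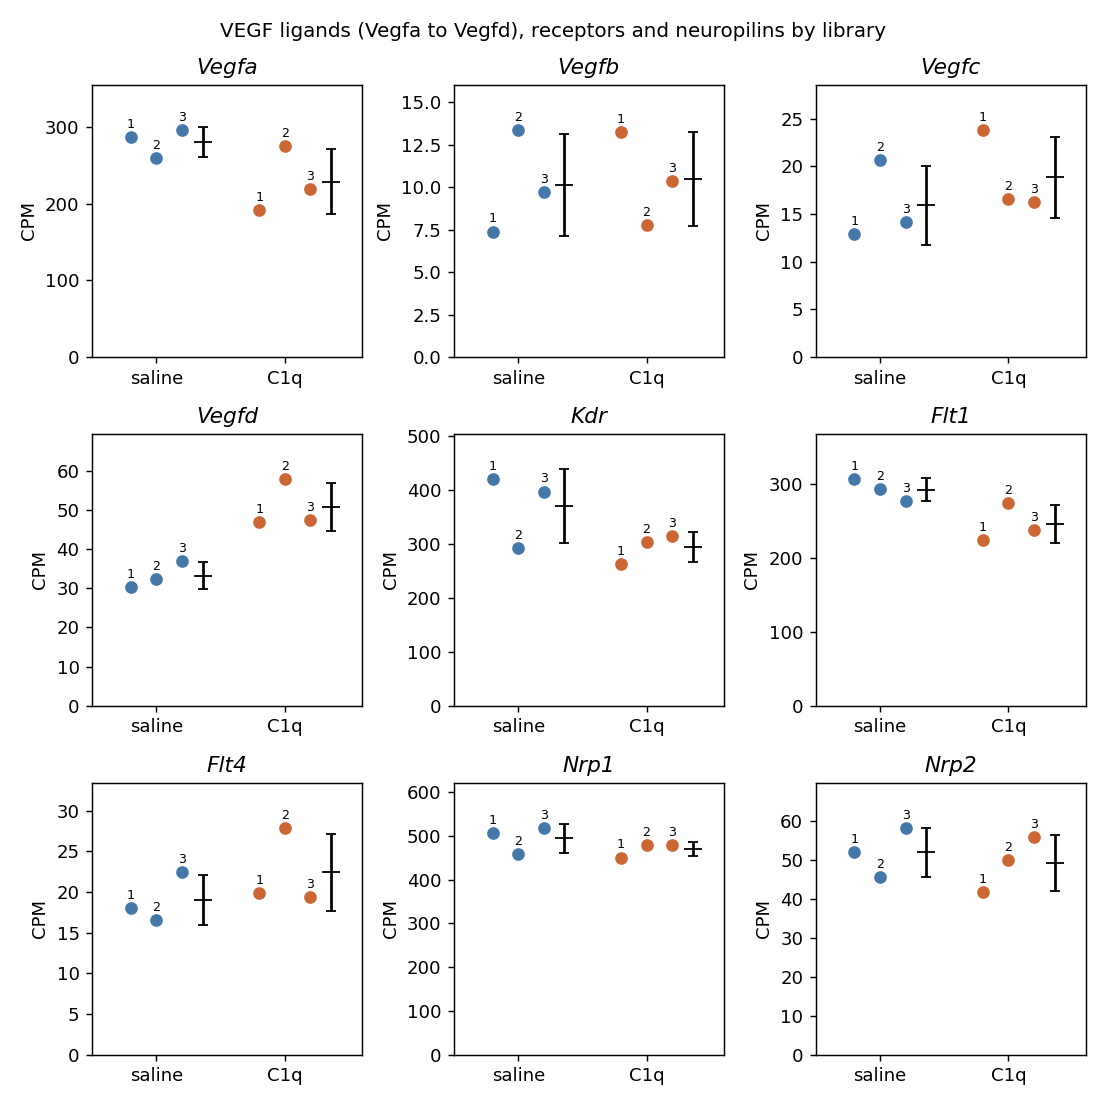
CPM (vertical axes, from 0) of each of the 9 VEGF genes in the 3 saline (blue) and 3 C1q (orange) libraries, with replicate numbers beside the points and the mean ± SD of each group in black. The groups are apart for Vegfd, at 30.2 to 37.0 CPM in saline and 47.0 to 57.8 CPM in C1q, and just apart for Flt1, and they overlap for the other 7 genes.

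Since the libraries read 5′ ends, the sequences before the start sites are shown for the 2 genes whose groups did not overlap and, beside them, for Kdr and Vegfa, the principal receptor and ligand. The sequences are RefSeq's, on GRCm38, and run 5′ to 3′ on the strand of the gene. Each stops before both the RefSeq and the GENCODE start. The Vegfd stretch is therefore short, as GENCODE places that start further upstream, and a window of 30 bases from before the RefSeq start is given as well. Capitals mark 3 motifs. The first is TATAAA, which positions transcription starts. The GC box, a site for Sp1-type factors, reads GGGCGG, and on the other strand it reads CCGCCC. The cyclic AMP response element reads TGACGTCA. The stretches lie at chrX:164373272-164373377 and chrX:164373437-164373466 on the plus strand for Vegfd, and on the minus strand at chr5:147726012-147726261 for Flt1, chr5:75978459-75978705 for Kdr and chr17:46032378-46032627 for Vegfa.
Vegfd, upstream: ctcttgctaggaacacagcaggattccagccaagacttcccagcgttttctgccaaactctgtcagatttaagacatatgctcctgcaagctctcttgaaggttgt
Vegfd, window: ataccacctcctTATAAAgcagctagaacc
Flt1: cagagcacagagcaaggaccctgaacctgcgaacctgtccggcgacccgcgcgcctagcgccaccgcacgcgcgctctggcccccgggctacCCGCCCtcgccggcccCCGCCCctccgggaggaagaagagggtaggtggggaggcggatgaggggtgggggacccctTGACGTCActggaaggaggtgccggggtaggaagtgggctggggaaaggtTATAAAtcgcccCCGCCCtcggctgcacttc
Kdr: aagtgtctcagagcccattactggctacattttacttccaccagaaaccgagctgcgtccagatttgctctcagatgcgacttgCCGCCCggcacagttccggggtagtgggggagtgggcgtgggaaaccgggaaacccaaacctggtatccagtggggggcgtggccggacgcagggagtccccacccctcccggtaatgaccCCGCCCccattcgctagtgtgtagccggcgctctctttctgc
Vegfa: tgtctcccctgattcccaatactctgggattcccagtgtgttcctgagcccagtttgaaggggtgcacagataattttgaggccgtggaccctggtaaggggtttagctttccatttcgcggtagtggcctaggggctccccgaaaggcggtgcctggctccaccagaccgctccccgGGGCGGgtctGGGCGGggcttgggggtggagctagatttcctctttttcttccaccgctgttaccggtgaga

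Over the 250 bases before the RefSeq start, Vegfd had 2 CpG dinucleotides and 42.4% G or C. The other 8 VEGF genes had 11 to 32 CpG and 59.2% to 76.4% G or C. Across 32851 mouse promoters the medians were 6 CpG and 52.4%. For Flt4 and Nrp1 the RefSeq starts, at 49609679 and 128359073, lie well downstream of the GENCODE starts. Their whole windows thus fall inside the genes as GENCODE places them. Parts of the Vegfd, Nrp2 and Kdr windows do as well. A GC box stood on either strand in 8 of the 9 genes, all but Vegfd, and in 32.74% of all promoters. The TATAAA motif, on either strand, stood in 2 of the 9 and in 12.37% of all promoters. It began 73 bases before the RefSeq start of Vegfd and 31 before that of Flt1. In Vegfd the motif lies after the GENCODE start, inside the gene as GENCODE places it. The cyclic AMP response element stood in Flt1 alone of the 9 and in 1.546% of all promoters. The hypoxia response core was searched only in the form ACGTG, held by 16.57% of all promoters. That form and the AP-1 site TGANTCA, held by 6.749%, both searched on either strand, were in 0 of the 9 windows. The other form of the core, GCGTG, was not searched. It stands in the printed Kdr stretch and, on the other strand, in that of Flt1. No searched motif overlapped another in the printed stretches. These matches describe letters in a window and not bound factors, and sequence further upstream was not searched.

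Of the ligands, Vegfd had the largest difference. Vegfd encodes VEGF-D, a ligand of the Flt4 receptor that lung fibroblasts are known to make, and its older symbol Figf stands for a growth factor induced by c-Fos. The gene spans 164373378 to 164402650 on chromosome X of GRCm38. It stood at 30.2, 32.4 and 37.0 CPM in saline replicates 1 to 3 and at 47.0, 57.8 and 47.4 CPM in C1q replicates 1 to 3. Every C1q library was above every saline library. The mean went from 33.2 ± 3.45 to 50.8 ± 6.15 CPM (SD, n = 3 each). This is a log2 fold change of 0.61 ± 0.17 (SE), with a 95% interval of 0.25 to 0.98, and the edgeR adjusted p was 0.415. By unadjusted p Vegfd was gene 117 of the 13473 tested. The difference stayed positive whichever library was left out, from 0.51 without C1q replicate 2 to 0.70 without saline replicate 3, and the adjusted p lay between 0.081 and 0.854 over all alternatives.

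Fibroblast markers were read beside Vegfd. The log2 fold change was positive for all 7, their median being 0.34. For 6 of the 7 every C1q library was above every saline library, against 8.12% of all genes. Their summed level was 1594 to 1741 CPM in saline and 2078 to 2107 CPM in C1q, and no marker was at 0. The largest part of that sum was Npnt, a marker named after its value was seen. Npnt had a mean of 880 ± 81.4 CPM in saline and 1024 ± 71.7 CPM in C1q, with a log2 fold change of 0.22 ± 0.15. In the edgeR test 0 of the 7 passed, and DESeq2 called 1, Col1a1. At an unadjusted p under 0.05, 3 of the 7 were higher, against 4.22% of all genes. Pdgfra, a general fibroblast receptor, was at a log2 fold change of 0.08 ± 0.15 (-0.04 without C1q replicate 2), the collagen gene Col1a1 at 0.99 ± 0.20 and Dcn, which encodes decorin, at 0.34 ± 0.19. The ratio of Vegfd to the summed fibroblast markers was 0.0174, 0.0204 and 0.0223 in the saline libraries and 0.0227, 0.0275 and 0.0227 in the C1q libraries. The ratio was thus above the saline range in every C1q library, by a log2 difference of 0.28 in the mean (exact permutation test, two-sided, p = 0.1, the smallest possible at 3 against 3, and 0.5 adjusted over 10 ratios). It was 0.15 with each marker weighted equally. This ratio was chosen after its values were seen.

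The other ligand for Flt4 is encoded by Vegfc (chromosome 8, 54077606 to 54187096), a driver of lymphatic growth. Its values were 12.9, 20.6 and 14.2 CPM in saline and 23.8, 16.6 and 16.3 CPM in C1q. C1q replicate 1 was the highest library and saline replicate 1 the lowest, and the groups overlapped. Its log2 fold change was 0.27 ± 0.26 (95% interval -0.30 to 0.84, edgeR adjusted p = 0.775), at 0.05 without C1q replicate 1 and 0.50 without saline replicate 2. Only 36 to 86 counts per library lay behind these values.

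Vegfa (chromosome 17, 46016993 to 46032369), which encodes the main ligand of blood vessel growth and permeability, stood at 287, 259 and 295 CPM in saline. In C1q it stood at 192, 274 and 219 CPM. C1q replicate 2 lay within the saline range and the other 2 C1q libraries below it. The saline mean was 280.4 ± 19.3 CPM and the C1q mean 228 ± 42.1 CPM, which gives -0.30 ± 0.17 as log2 fold change (95% interval -0.67 to 0.07, edgeR adjusted p = 0.641). It was -0.18 without C1q replicate 1 and -0.45 without C1q replicate 2. Vegfa is spliced into several isoforms, which counts per gene do not separate.

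Vegfb (chromosome 19, 6982473 to 6987651), a ligand of Flt1 linked to fatty acid handling and cardiac muscle, was covered by 22 to 48 counts per library. It stood at 7.39, 13.4 and 9.71 CPM in saline and 13.3, 7.76 and 10.4 CPM in C1q. The groups spanned nearly the same range. The log2 fold change of 0.07 ± 0.32 had a 95% interval of -0.64 to 0.77 and turned negative without saline replicate 1 (-0.12) or C1q replicate 1 (-0.16). Counting error alone would give a coefficient of variation of 18.5% at its mean count, and the saline libraries had 29.6%.

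Among the receptors, Kdr (chromosome 5, 75932827 to 75978458) was at 421, 293 and 398 CPM in saline and at 263, 304 and 316 CPM in C1q. Saline replicates 1 and 3 were the 2 highest libraries, while saline replicate 2 lay within the C1q range. The saline mean was 370.4 ± 68.3 CPM and the C1q mean 294 ± 27.6 CPM. In log2 the fold change was -0.33 ± 0.17 (95% interval -0.72 to 0.05, edgeR adjusted p = 0.623), at -0.47 without saline replicate 2 and -0.23 without saline replicate 1. Counting error was a small part of this spread. It would give a coefficient of variation of 3.27% at the mean count of Kdr, where the saline libraries had 18.4%.

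Flt1 (chromosome 5, 147561604 to 147726011) was at 307, 294 and 276 CPM in saline and 225, 274 and 238 CPM in C1q. All C1q libraries were below all saline libraries, but saline replicate 3 and C1q replicate 2 lay next to each other. The saline mean was 292 ± 15.2 CPM and the C1q mean 246 ± 25.4 CPM, which gives -0.25 ± 0.15 as log2 fold change (95% interval -0.57 to 0.07, edgeR adjusted p = 0.648). Full-length and soluble Flt1 transcripts share their start, so their balance cannot be read from these counts.

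Flt4 (chromosome 11, 49609263 to 49652739) had few counts, 41 to 79 per library. The level was 18.0, 16.6 and 22.4 CPM in saline and 19.9, 27.9 and 19.4 CPM in C1q. C1q replicate 2 was the highest, and the groups overlapped. Flt4 had a log2 fold change of 0.24 ± 0.22 (95% interval -0.26 to 0.73, edgeR adjusted p = 0.772), at 0.05 without C1q replicate 2 and 0.37 without saline replicate 3.

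The neuropilin genes had log2 fold changes near 0. Nrp1 (chromosome 8, 128358604 to 128503363), a co-receptor of Kdr, had the most counts of the 9, with 1061 to 1629 per library. It was at 507, 457 and 518 CPM in saline and 451, 480 and 479 CPM in C1q. All C1q libraries were within or just under the saline range. The log2 fold change was -0.07 ± 0.14, and its 95% interval of -0.39 to 0.24 spans a fold change of 0.765 to 1.18 (edgeR adjusted p = 0.899). It was -0.12 without saline replicate 2 and -0.04 without saline replicate 3. Nrp2 (chromosome 1, 62703285 to 62818695), a co-receptor for Flt4 that is also carried by macrophages, was at 52.1, 45.7 and 58.3 CPM in saline and 41.8, 50.1 and 56.0 CPM in C1q. The log2 fold change was -0.09 ± 0.17 (95% interval -0.46 to 0.29, edgeR adjusted p = 0.901) and 0.03 without C1q replicate 1. An antisense gene, Gm29083, overlaps Nrp2, and no source states whether counting used the strand, so reads of the pair may not be told apart. Gm37121 overlaps Nrp2 on the same strand, where the strand cannot separate reads. The microRNA gene Mir1903 likewise overlaps Nrp1 on its strand.

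**Figure D2:**
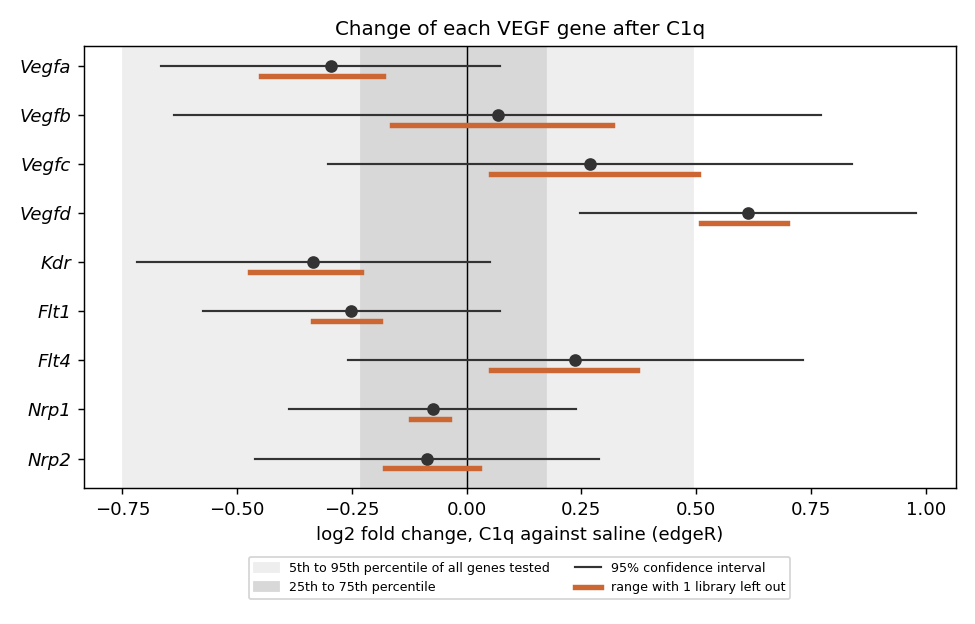
Log2 fold change of each VEGF gene, C1q against saline, from edgeR (points), with its 95% confidence interval (thin lines) and the range with 1 library left out (thick lines), over grey bands for the middle 50% and 90% of all genes tested. The interval lies above 0 for Vegfd, at 0.25 to 0.98, and spans 0 for the other 8 genes.

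Ratios within a library do not depend on how libraries are scaled, and 9 of them were compared besides that for Vegfd. Flt1 and Kdr kept overlapping ratios, at 0.729, 1.00 and 0.695 Flt1 counts per Kdr count in saline and 0.855, 0.901 and 0.756 in C1q (exact permutation p = 0.8). The high saline value belongs to saline replicate 2, the library with the low Kdr level. Vegfa to Kdr had a log2 difference of 0.01 (exact permutation p = 0.8) and Nrp2 to Nrp1 of -0.01 (exact permutation p = 1), each with groups that overlapped and a sign that changed when some libraries were left out. Nrp1 to Kdr stood at 1.21, 1.56 and 1.30 in saline and 1.71, 1.58 and 1.52 in C1q, a log2 difference of 0.25 (exact permutation p = 0.2). Vegfc to Flt4 varied more within groups than between them. Its log2 difference was 0.03, with an SD of 0.51 in saline and 0.50 in C1q (exact permutation p = 1). All of these tests were two-sided, and the adjusted p over the 10 ratios was 0.5 or more.

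**Figure D3:**
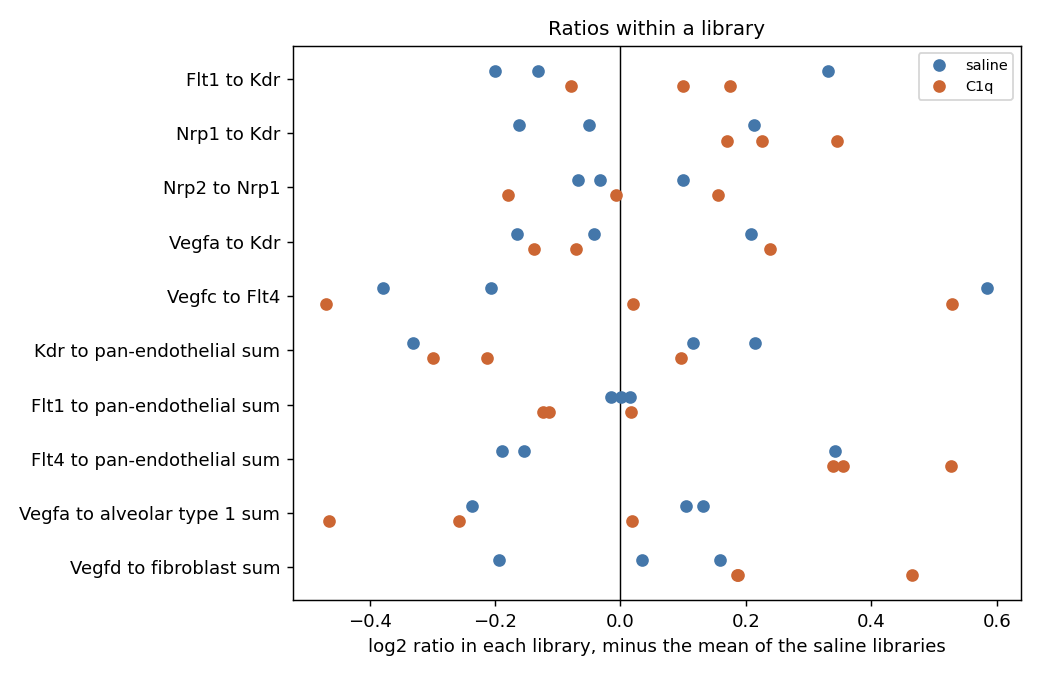
Log2 ratio of counts in each saline (blue) and C1q (orange) library, minus the mean of the saline libraries, for 10 ratios between a VEGF gene and another gene or a marker sum. The groups overlap in 9 of the 10 ratios. For Vegfd to the fibroblast sum the 3 C1q libraries lie just above the saline libraries.

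Endothelial markers were read beside Kdr and Flt1. All 13 pan-endothelial markers were negative on the log2 scale (median -0.24), as were 51.8% of all genes tested. That was so under each other scaling, and with 1 library left out at least 11 of the 13 were negative. In the edgeR test 0 of the 13 passed, and 0 were called by DESeq2. At an unadjusted p under 0.05, 1 of the 13 was lower, against 3.94% of all genes. The junction genes Pecam1, Cdh5 and Cldn5 were at -0.24 ± 0.15, -0.27 ± 0.16 and -0.05 ± 0.19 (Cldn5 0.09 without C1q replicate 3). The summed level of the 13 was 5044 to 5714 CPM in saline and 4345 to 5507 CPM in C1q, and no marker was at 0.

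Measured against that sum, Flt1 was at 0.0537, 0.0543 and 0.0548 in the saline libraries and at 0.0502, 0.0498 and 0.0549 in the C1q libraries. The saline libraries thus had nearly the same share of Flt1. C1q replicates 1 and 2 lay below all of them and C1q replicate 3 at their upper end. The log2 difference of Flt1 against the sum was -0.07 (exact permutation p = 0.4), where Flt1 alone differed by -0.25. For Kdr the ratio was 0.0737, 0.0541 and 0.0789 in saline and 0.0587, 0.0552 and 0.0727 in C1q, a log2 difference of -0.14 (exact permutation p = 0.6). For Flt4 it was 0.00318, 0.00310 and 0.00448 in saline and 0.00447, 0.00509 and 0.00452 in C1q, a log2 difference of 0.41 (exact permutation p = 0.2). In that ratio saline replicate 3 was level with the C1q libraries and the other 2 saline libraries were below them.

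Lists of vessel subtypes were read beside the receptors as well, and in each of them 0 genes passed the edgeR test and 0 were called by DESeq2. The 7 aerocyte markers had a median log2 fold change of -0.17, which was -0.04 without saline replicate 3 and -0.31 without C1q replicate 2. Car4, an aerocyte carbonic anhydrase, was at 0.11 ± 0.21 (-0.04 without C1q replicate 1), the endothelin receptor gene Ednrb at -0.26 ± 0.17 and the peptide gene Apln at -0.17 ± 0.21. All 6 general capillary markers were negative, with a median of -0.26 (-0.43 without C1q replicate 2). Gpihbp1, which anchors lipoprotein lipase, was at -0.21 ± 0.21, Plvap, a component of fenestral diaphragms, at -0.13 ± 0.16 and the apelin receptor gene Aplnr at -0.53 ± 0.21. Of the 7 arterial and venous markers tested, 4 were negative (3 to 5 with 1 library left out), with Vwf at 0.09 ± 0.15 (-0.00029 without C1q replicate 2), Gja5 at 0.23 ± 0.16 and Gja4, a connexin of arteries, at 0.41 ± 0.14. At an unadjusted p under 0.05 these lists held 1 aerocyte and 1 capillary gene that were lower and 1 arterial gene that was higher. Of all genes, 3.94% were lower and 4.22% higher at that p.

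The lymphatic markers, read beside Flt4, Vegfc and Vegfd, were 4 positive and 2 negative of 6, with a median log2 fold change of 0.13 and 0 passing the edgeR test. Leaving out C1q replicate 2 or saline replicate 3 gave a median of 0.06 or 0.08, and leaving out saline replicate 2 or C1q replicate 3 gave 0.21 or 0.26. Prox1, the regulator of lymphatic identity, had 13 to 21 counts per library and stood at -0.08 ± 0.35 (0.14 without C1q replicate 1). The hyaluronan receptor gene Lyve1, which some lung macrophages also carry, was at -0.22 ± 0.22. Mmrn1, a lymphatic gene that platelets also carry, had a mean of 15.0 ± 2.52 CPM with saline against 25.2 ± 6.52 CPM with C1q, and its log2 fold change was 0.72 ± 0.25 (edgeR adjusted p = 0.56). Every C1q library was above every saline library for Mmrn1, as for 8.12% of all genes. The highest saline library, at 17.7 CPM, and the lowest C1q library, at 18.0 CPM, lay next to each other. The list summed to 351 to 520 CPM with saline and 357 to 477 CPM with C1q, and no marker was at 0. The part of lymphatic cells in the values of Flt4 and its ligands was not tested.

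Alveolar type 1 markers, read beside Vegfa, had a median log2 fold change of -0.08 over 8 genes, 5 of them negative, and 0 passed the edgeR test. With 1 library left out that median ran from -0.11 without C1q replicate 2 to 0.0074 without C1q replicate 1. Ager was at -0.12 ± 0.17 (0.03 without saline replicate 2), Hopx at -0.75 ± 0.27 (-0.39 without saline replicate 2) and the water channel gene Aqp5 at 0.30 ± 0.15. Their summed level was 2637 to 3067 CPM in saline and 2641 to 2727 CPM in C1q. Vegfa against that sum was at 0.109, 0.0844 and 0.107 in saline and 0.0721, 0.101 and 0.0832 in C1q. The groups overlapped, with a log2 difference of -0.23 (exact permutation p = 0.2). Pericyte markers, which belong to the cells that wrap capillaries, had a median of -0.31 over 6 genes (-0.15 without saline replicate 3). Of the 6, 4 were negative and 2 positive. Pdgfrb was at -0.41 ± 0.17, Cspg4 at 0.07 ± 0.28 (-0.17 without saline replicate 2) and Higd1b at -0.87 ± 0.25. Kcnj8, named after its value was seen, was at 0.67 ± 0.31. The summed level of the 6 pericyte markers was 245 to 252 CPM in saline and 183 to 197 CPM in C1q, and 0 passed the edgeR test. At an unadjusted p under 0.05, 3 of the 6 were lower, against 3.94% of all genes.

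The rest of the pathway was read from 7 lists, and 0 of their genes passed the edgeR test, DESeq2 or limma-voom. Of the other ligands and partners, 12 of 13 were tested, with a median log2 fold change of -0.04 and 0 at an unadjusted p under 0.05. That median ran from -0.10 without saline replicate 1 to 0.09 without saline replicate 3. Pgf, the placental growth factor that binds Flt1, had 11 to 18 counts per library and stood at 0.20 ± 0.39. The neuropilin ligands Sema3a and Sema3b were at -0.02 ± 0.21 and -0.06 ± 0.19, both of uncertain sign when libraries were left out. VEGF-C and VEGF-D need cutting by proteases to become fully active. In that list 7 of 8 genes were tested. At an unadjusted p under 0.05, 2 were higher and 1 lower, against 4.22% and 3.94% of all genes. Ccbe1, a cofactor of VEGF-C cutting, was at -0.06 ± 0.23. Adamts3, the best known of these proteases, did not pass the filter, with 5 to 11 counts per library. Its relative Adamts14 had a mean of 7.87 ± 0.297 CPM with saline against 2.98 ± 0.452 CPM with C1q, on 7 to 24 counts. The log2 fold change of Adamts14 was -1.38 ± 0.35 (edgeR adjusted p = 0.405). Every C1q library was below every saline library for Adamts14, as for 5.96% of all genes. Adamts2, named after its value was seen, was at 0.82 ± 0.16 (edgeR adjusted p = 0.231).

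Genes that act behind the receptors were covered by the next lists. Of the 8 receptor regulators, 0 were at an unadjusted p under 0.05. Among them the endothelial phosphatase gene Ptprb was at -0.26 ± 0.18, and the phosphatase genes Ptprj and Ptpn1 were at -0.02 ± 0.16 (0.12 without saline replicate 3) and 0.19 ± 0.14. The 23 signalling genes had a median log2 fold change of 0.01 (-0.02 with library-size scaling, 0.04 without saline replicate 3). They ran from -0.46 to 0.38, and 1 was lower at an unadjusted p under 0.05, against 3.94% of all genes. Plcg1, the phospholipase that Kdr activates, was at -0.13 ± 0.16, and the protein kinase C genes Prkca and Prkcb were at -0.14 ± 0.19 and -0.02 ± 0.21 (0.09 without saline replicate 3).

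Among 13 genes that endothelial cells raise in response to VEGF, the median log2 fold change was -0.004. It was -0.12 without saline replicate 2 and -0.11 without C1q replicate 2. At an unadjusted p under 0.05, 2 of the 13 were lower, against 3.94% of all genes. Esm1, which encodes the secreted proteoglycan endocan, had a mean of 59.7 ± 5.75 CPM with saline and 35.1 ± 13.7 CPM with C1q. Every C1q library was below every saline library for Esm1, as for 5.96% of all genes. Its log2 fold change was -0.77 ± 0.24 (edgeR adjusted p = 0.529), at -1.14 without C1q replicate 2 and -0.55 without C1q replicate 1. With no filter on low counts it passed (edgeR adjusted p = 0.0206), but that fit called 373 genes, where the main fit called 4. The Notch ligand gene Dll4 was at 0.07 ± 0.17 (-0.03 without C1q replicate 2). Angpt2, which encodes an antagonist of the TIE2 receptor and belongs both to this list and to that of the angiopoietins, had a mean of 28.3 ± 2.38 CPM with saline and 20.4 ± 1.97 CPM with C1q. Its groups did not overlap either, and its log2 fold change was -0.48 ± 0.18 (edgeR adjusted p = 0.598). Angpt1, the agonist, was at -0.08 ± 0.15 (0.02 without C1q replicate 1), and all 4 tested genes of the angiopoietin and TIE list were negative, with a median of -0.16 (-0.06 without C1q replicate 1, -0.25 without C1q replicate 2).

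Of the oxygen-sensing genes that act upstream of Vegfa, 8 of 10 were tested and 0 were at an unadjusted p under 0.05. Hif1a, the inducible hypoxia factor, was at 0.35 ± 0.17, Epas1, its relative that is abundant in endothelium, at -0.27 ± 0.17 and their partner Arnt at -0.02 ± 0.17 (0.08 without saline replicate 3). The list median was 0.04, and it was -0.07 without saline replicate 1 and 0.17 without saline replicate 2.

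**Figure D4:**
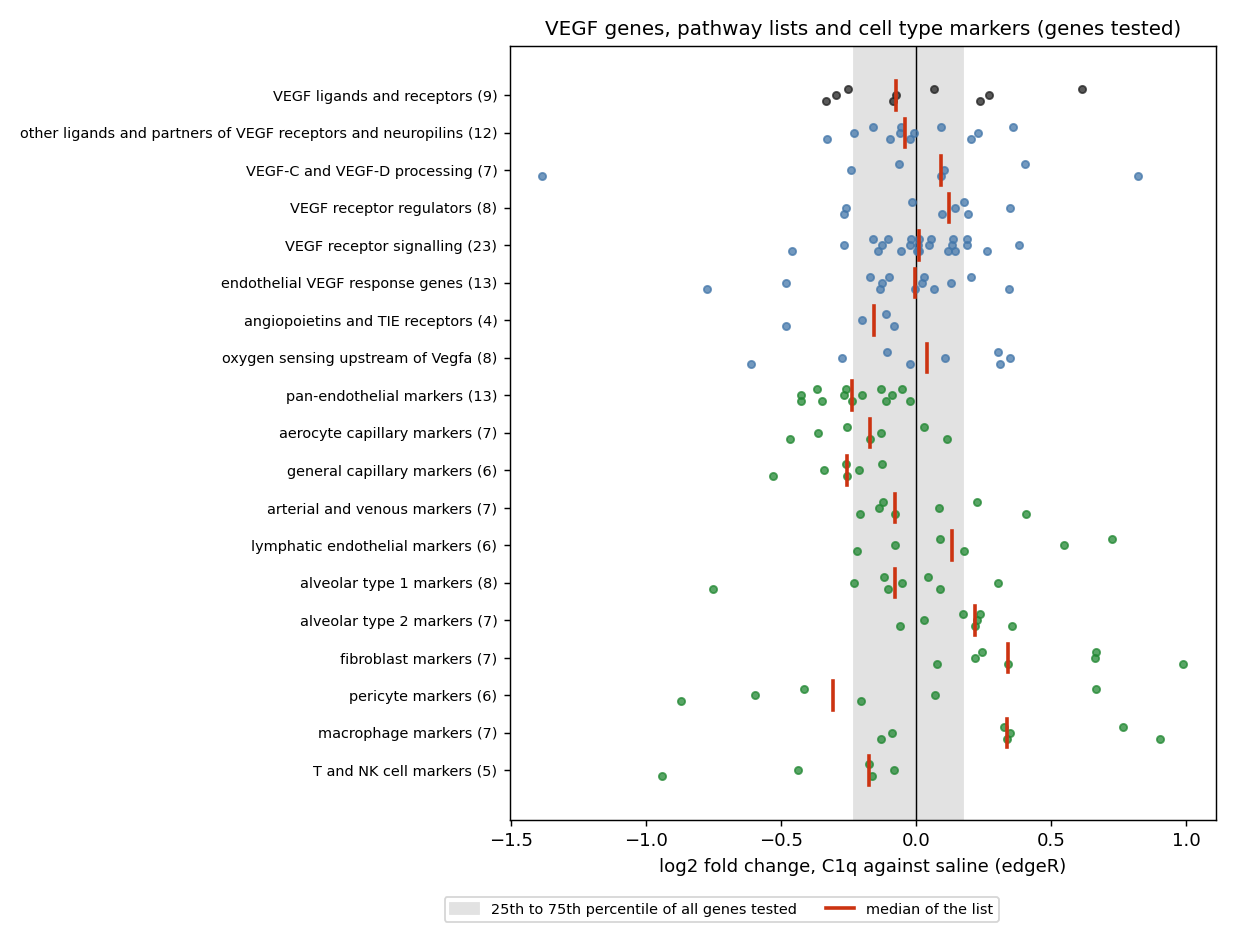
Log2 fold change, C1q against saline, of each tested gene (points) in the VEGF family (black), 7 pathway lists (blue) and 11 cell type marker lists (green), with the number tested in brackets, list medians in red and the middle 50% of all genes tested in grey. The VEGF median of -0.07 lies near 0, the medians of the pan-endothelial (-0.24), general capillary (-0.26) and pericyte (-0.31) lists lie to the left, and that of the fibroblast list (0.34) lies to the right.

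The VEGF genes also differed in how closely they followed each other over the 6 libraries. As a measure, the log2 CPM of each gene was centred on its mean and the root-mean-square distance between 2 genes was taken. Nrp1 and Nrp2 were the closest pair, at 0.11, followed by Vegfa and Flt1, also at 0.11 to 2 decimals. Vegfc and Kdr were the farthest apart, at 0.52. Counting error widens such distances for the genes with few counts. Among 7735 other genes with a mean of at least 20 CPM, those nearest to Kdr were Cdadc1, Gm26782 and Rapgef6, at 0.05, 0.05 and 0.06, where the median gene was at 0.32. The genes nearest to Vegfa were Cyyr1, Bmpr2 and Arhgap29, at 0.04, 0.04 and 0.05, where the median gene was at 0.31. These are descriptions of 6 libraries, with nearest genes picked from many.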

How the data were processed

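The values deposited by the authors are raw counts per gene symbol and sample. Cutadapt 2.1.0, Bowtie2 2.4.2 and GRCm38 are named per the submitters' processing notes. The counting step, annotation, strand handling and any use of molecular identifiers were not given by these notes or the labels. Samples were grouped by their treatment label and numbered in order of deposit, which pairs nothing.

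Counts were filtered with filterByExpr, which kept 98.2% to 99.3% of each library, scaled by TMM, and compared between groups in edgeR 4.0.16 (glmQLFit and glmQLFTest, two-sided, treatment only). The Benjamini-Hochberg adjustment covered the 13473 genes kept, and an adjusted p under 0.05 was called. The procedure was tested on simulated data, whose set changes were all larger than those of the VEGF genes. Whether differences as small as theirs would be called was not tested. A standard error is the size of the log2 fold change divided by the square root of F. The common biological coefficient of variation was 19.5%. Ratios used counts with 0.5 added. The other scalings, filters and tools tried were RLE, upper-quartile and library-size scaling, no filter, a mean of at least 5 CPM, DESeq2 1.42.0, limma-voom (limma 3.58.1) and leaving out each library.

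The VEGF genes and all lists were chosen with earlier results of these data known. Named are all VEGF genes, the first 3 genes of each list as written, and the 3 genes nearest in profile to Kdr and to Vegfa. Other genes named were chosen after their values were seen. Gene positions come from GENCODE M21 and promoters from RefSeq, both on GRCm38. All 9 VEGF genes matched in both. Between any pair of libraries, chi-square divided by its degrees of freedom was 4.74 to 14.6, above counting noise. The smallest value was between C1q replicates 2 and 3 and the largest between saline replicates 2 and 3. Such values cannot show whether libraries come from separate animals. Each library was counted as 1 sample.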

Additional observations from a re-analysis of the deposited data

How the results depend on the processing

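In none of the 13 alternatives was any of the 9 VEGF genes called. Over all genes the count of calls was 373 with no filter on low counts (158 higher, 215 lower), 32 with DESeq2 (31 higher, 1 lower) and 0 to 10 with 1 library left out (0 to 9 higher, 0 to 1 lower). The lowest of these came without saline replicate 1 and the highest without saline replicate 3. There were 1 and 2 calls without C1q replicates 1 and 2. The cause was not tested. Of 117 log2 fold changes of VEGF genes, 114 kept their sign. The exceptions were Vegfb (-0.16 to 0.32 with 1 library left out) and Nrp2 (-0.18 to 0.026). Log2 ratios that changed sign with 1 library left out were Flt1 to Kdr (-0.035 to 0.23), Nrp2 to Nrp1 (-0.093 to 0.075), Vegfa to Kdr (-0.10 to 0.11) and Vegfc to Flt4 (-0.22 to 0.32). With no filter Adamts2, Esm1, Hopx and Higd1b were among the list genes called. No paired analysis was possible because the replicate numbers follow the order of deposit and are not shared by the labels of both groups. Vegfb, Vegfc and Flt4 had 22 to 86 counts per library, for which counting error alone gives a coefficient of variation of 13.1% to 18.5%. Of 234 list medians, 21 moved by more than the spread between libraries.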

Other observations

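Cell types that were not read beside a VEGF gene also had values in these libraries. Of 7 alveolar type 2 markers, 6 were positive on the log2 scale (median 0.22), with 0 passing the edgeR test or at an unadjusted p under 0.05. That median was 0.09 without saline replicate 3 and 0.37 without saline replicate 2. Sftpc, the surfactant protein C gene, was at -0.06 ± 0.26 (0.27 without saline replicate 2), Sftpb at 0.17 ± 0.19 and Sftpa1 at 0.03 ± 0.20 (-0.13 without saline replicate 3). Their list summed to 23910 to 45401 CPM in saline and 32582 to 34970 CPM in C1q. Of 7 macrophage markers, 5 were positive, with a median of 0.34. Their sum of 1006 to 2335 CPM in saline and 2634 to 3100 CPM in C1q is mostly Chil3, a chitinase-like gene named after its value was seen, with a mean of 1369 ± 641 CPM in saline and 2558 ± 233 CPM in C1q. Cd68 was at 0.35 ± 0.18, Marco, a scavenger receptor of alveolar macrophages, at -0.13 ± 0.28 (0.13 without C1q replicate 3) and Mertk, a receptor for dying cells, at -0.09 ± 0.15. In the edgeR test 0 passed, with 2 of the 7 higher at an unadjusted p under 0.05, against 4.22% of all genes. All 5 tested T and NK cell markers were negative, with a median of -0.18 and 0 passing the edgeR test. At an unadjusted p under 0.05, 1 of the 5 was lower, against 3.94% of all genes. With 1 library left out, 3 to 5 were negative, and the median ran from -0.69 without C1q replicate 1 to -0.015 without saline replicate 1. Cd3e was at -0.94 ± 0.42, Cd3d at -0.18 ± 0.26 and Cd8a at -0.08 ± 0.48 (the last pair at 0.025 and 0.25 without saline replicate 1), on 4 to 57 counts per library.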
